A study of Mus musculus with 8 samples.

Results

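The genes described here are the classical major histocompatibility complex (MHC) genes of the mouse and their dedicated regulators, chosen by symbol and not by their levels. They are 9 of the 41709 genes in the expression table. Class I is represented by *H2-K1* and *H2-D1*, which encode heavy chains, by *B2m*, which encodes the light chain beta-2 microglobulin, and by *Nlrc5*, the class I transactivator. Class II is represented by *H2-Aa*, *H2-Ab1* and *H2-Eb1*, which encode alpha and beta chains, by *Cd74*, which encodes the invariant chain, and by *Ciita*, the class II transactivator. All 9 were listed above 0 in every muscle. The 7 genes other than *Nlrc5* and *Ciita* reached 1 TPM, an abundance scaled by transcript length and library total, in at least 4 muscles out of 8, and were tested among 11530 genes.

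MHC class I molecules display peptides from proteins made inside the cell, most of them cut by the proteasome from ubiquitinated proteins, and nearly all nucleated cells carry them. MHC class II molecules display peptides from proteins taken up from outside, and are carried mainly by professional antigen-presenting cells such as dendritic cells, macrophages and B cells. Resting myofibers carry little class I and hardly any class II, so class II mRNA in whole muscle is usually attributed to resident leukocytes. Interferon-gamma raises both classes, in part through IRF1.

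RNA was taken from whole tibialis anterior (TA) muscles of male C57BL/6J mice aged 3 months. Every muscle was treated with hyaluronidase, injected with a pool of 4 siRNAs and electroporated, and was collected 7 days later. The control group is 4 muscles with non-targeting (NT) siRNAs and the other is 4 muscles with siRNAs against *Uba1*, the main E1 enzyme that activates ubiquitin, in the opposite legs of the same 4 mice. Muscles that were not electroporated were not analysed here. All NT siRNAs were given in legs marked R and all *Uba1* siRNAs in legs marked L, so leg and siRNA cannot be told apart. The treatment tags name UBA2, UBA3 and UBA4 for replicates 2, 3 and 4, while titles and descriptions name UBA1.

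The targeted gene *Uba1* was at 59.0 to 63.6 TPM with NT siRNAs and at 6.77 to 23.1 TPM with *Uba1* siRNAs, without overlap. The 7 myofiber markers, among them *Acta1* and *Ckm*, summed to 91614 to 133353 TPM in the 8 muscles, so markers of the labeled tissue were abundant. Transcripts of the mitochondrial genome took 42.1 to 45.7% of the TPM with NT siRNAs and 39.9 to 50.3% with *Uba1* siRNAs, and the highest share was in *Uba1* replicate 2. TPM retain no read total, so the depth of each library is unknown. The *Uba1*/NT log2 fold change (log2FC) of the median gene was 0.11 and fell to 0.0016 with median-ratio scaling between muscles. The log2FC of the tested MHC genes is therefore also given on that scale.

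The promoters are shown because class I and class II genes share a regulatory module, called SXY, to which RFX, CREB and NF-Y proteins bind and on which NLRC5 and CIITA act. RefSeq promoter windows were matched for 5 of the 9 genes. Each line gives the 200 bases before the annotated start on the strand of the gene, 5′ to 3′, in the GRCm38.p6 build. Capitals mark 4 short motifs searched on both strands, namely CCAAT (the NF-Y core, ATTGG on the opposite strand), TGACG (a part of the CREB site within the X box, CGTCA on the opposite strand), AANNGAAA (the core of an IRF site) and GGGATTCC (one form of a kappa-B site).
*H2-K1*, chr17:34000348-34000547, minus strand, the most upstream of 2 starts: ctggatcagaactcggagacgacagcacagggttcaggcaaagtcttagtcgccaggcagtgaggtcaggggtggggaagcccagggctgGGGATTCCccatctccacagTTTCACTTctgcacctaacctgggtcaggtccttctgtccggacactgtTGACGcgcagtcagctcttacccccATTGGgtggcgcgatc
*H2-D1*, chr17:35262894-35263093, plus strand: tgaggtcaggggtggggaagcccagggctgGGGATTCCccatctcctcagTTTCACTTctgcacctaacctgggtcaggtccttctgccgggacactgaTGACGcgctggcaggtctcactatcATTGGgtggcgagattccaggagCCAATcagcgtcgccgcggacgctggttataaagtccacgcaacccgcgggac
*B2m*, chr2:122147487-122147686, plus strand: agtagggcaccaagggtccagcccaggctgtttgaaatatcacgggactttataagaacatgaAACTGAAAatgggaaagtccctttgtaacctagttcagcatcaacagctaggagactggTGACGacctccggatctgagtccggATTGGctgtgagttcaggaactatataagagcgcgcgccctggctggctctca
*H2-Aa*, chr17:34287824-34288023, minus strand: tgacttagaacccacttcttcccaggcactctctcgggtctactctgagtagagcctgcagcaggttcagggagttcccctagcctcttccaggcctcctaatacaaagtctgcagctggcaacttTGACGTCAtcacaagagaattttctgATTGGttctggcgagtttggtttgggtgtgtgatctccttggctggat
*H2-Eb1*, chr17:34305667-34305866, plus strand: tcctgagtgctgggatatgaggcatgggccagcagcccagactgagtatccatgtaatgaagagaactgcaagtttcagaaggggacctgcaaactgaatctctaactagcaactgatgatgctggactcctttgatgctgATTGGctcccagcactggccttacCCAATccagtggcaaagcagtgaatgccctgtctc

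In *H2-K1*, *H2-D1* and *B2m* the start of TGACG lay 25 bases before the start of ATTGG, and in *H2-Aa* it lay 26 bases before. Among 32851 promoter windows of the same length, 0.390% held TGACG followed by ATTGG with starts within 40 bases. The *H2-Eb1* window held ATTGG and CCAAT but not TGACG in these letters. In *H2-Aa*, TGACG and its opposite-strand copy overlap. The IRF core was found in the 3 class I windows and in 17.0% of all windows. The kappa-B letters were found in *H2-K1* and *H2-D1* and in 0.670% of all windows. CCAAT was found in 29.3% and TGACG in 15.7% of all windows. The *H2-K1* and *H2-D1* windows were identical at 128 of 140 aligned bases (91.4%). These matches describe letters in the reference and not sites in use in muscle.

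No difference was called between *Uba1* siRNAs and NT siRNAs for any of the 7 tested MHC genes. At an adjusted p of 0.05, 0 of 7 were called, against 0.0260% of all genes tested (3 of 11530), by limma with Benjamini-Hochberg adjustment. At an unadjusted p under 0.05, 0 of 7 were called, against 18.0% of all genes tested (2072 of 11530). With median-ratio scaling 0 of 7 were called at that threshold, against 4.43% of all genes tested higher and 6.18% lower. The levels of all 9 genes overlapped between the groups, and 11.6% of all genes tested had groups that did not overlap. Among so few genes, counts of 0 are near such shares. With the mouse as a replicate block, again 0 of 7 passed the adjusted p, against 0.494% of all genes tested. The standard errors and intervals given below are from the unpaired fit and include differences between mice. With the block, the standard errors of the 7 genes were 0.106 to 0.189, against 0.158 to 0.340 without it. By the Kruskal-Wallis test at an unadjusted p under 0.05, 0 of 7 were called, against 19.2% of all genes tested. In whole muscle, fewer cells of a type and less RNA per cell cannot be told apart.

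**Figure D1:**
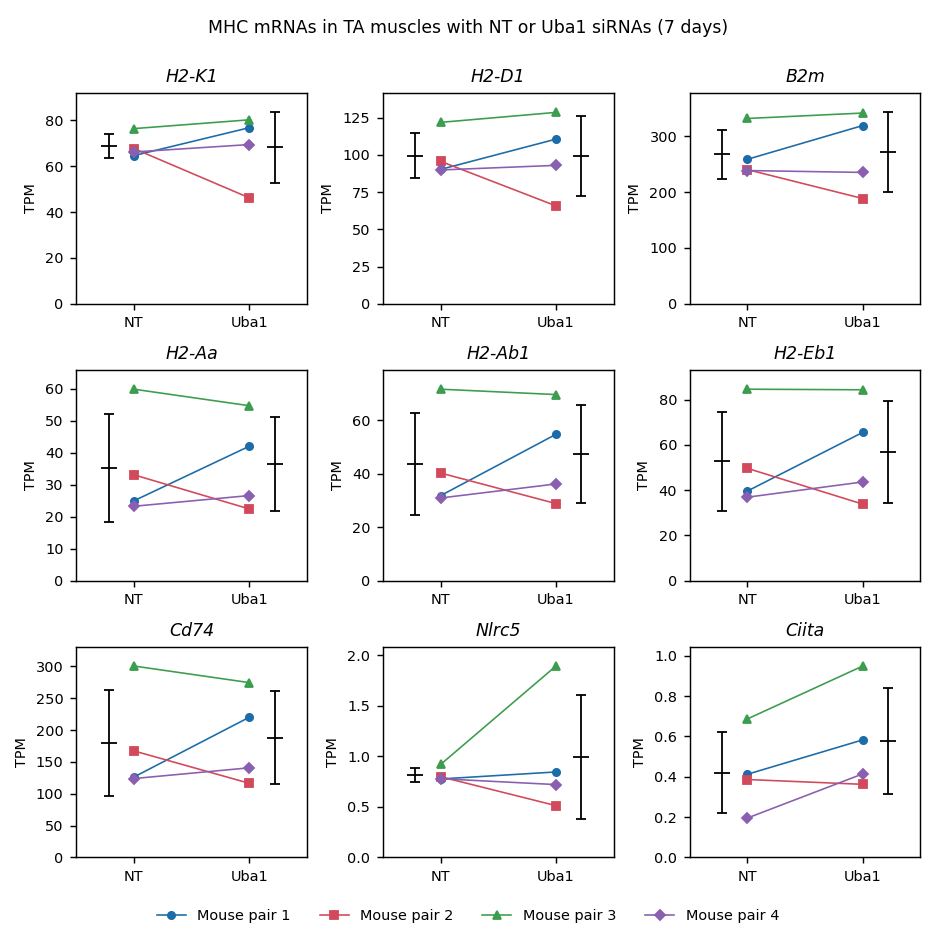
TPM (y axis, from 0) of the 9 MHC genes in each TA muscle with NT or *Uba1* siRNAs, where lines join the legs of a mouse and black bars are the mean ± SD of 4 muscles. The groups overlap for every gene, mouse 3 is at the top of every panel, and the means of the 8 muscles run from a mean of 0.499 TPM for *Ciita* to 269 TPM for *B2m*.

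*H2-K1* encodes the K heavy chain, which presents peptides to CD8+ T cells. It was at 64.6, 67.7, 76.4 and 66.2 TPM in NT replicates 1 to 4 and at 76.8, 46.2, 80.3 and 69.5 TPM in *Uba1* replicates 1 to 4. The *Uba1* muscles held both the highest and the lowest value, and the NT values lay between them. The means were 68.7 ± 5.27 and 68.2 ± 15.3 TPM (SD, n = 4 each). The log2FC was -0.039 (standard error, SE, 0.158, limma adjusted p = 0.901) and was -0.16 with median-ratio scaling. The 95% interval of the log2FC ran from -0.40 to 0.32, or from 0.760-fold to 1.25-fold.

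*H2-D1* encodes the D heavy chain. Its levels were 90.3, 95.7, 122 and 89.9 TPM with NT siRNAs and 111, 65.8, 129 and 93.0 TPM with *Uba1* siRNAs. Replicate 3 was highest in both groups and *Uba1* replicate 2 was lowest of all. The log2FC was -0.030 (SE 0.192, limma adjusted p = 0.939), with a 95% interval of -0.46 to 0.40, and was -0.15 with median-ratio scaling. Of the 100-base windows along the *H2-D1* transcript, 4.61% (93 of 2018) occur unchanged in another gene, and none did so for the other 8 MHC genes. Only identical windows of 1 transcript per MHC gene were counted, so the share of reads split among related genes is unknown.

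*B2m*, whose product pairs with every class I heavy chain, was the most abundant of the 9 genes. It was at 259, 240, 332 and 239 TPM with NT siRNAs and at 319, 188, 342 and 235 TPM with *Uba1* siRNAs. Again replicate 3 was highest in both groups and *Uba1* replicate 2 lowest. The log2FC was -0.0064 (SE 0.190, limma adjusted p = 0.987), or -0.13 with median-ratio scaling. In this unpaired fit the 95% interval ran from -0.43 to 0.42, or from 0.740-fold to 1.34-fold. With the replicate block the SE was smaller, at 0.106.

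*Nlrc5* encodes the transactivator that drives class I transcription. It was at 0.776, 0.798, 0.921 and 0.779 TPM with NT siRNAs and at 0.846, 0.512, 1.90 and 0.721 TPM with *Uba1* siRNAs. *Uba1* replicate 3 stood above every other muscle and *Uba1* replicate 2 was lowest, so the group with *Uba1* siRNAs spanned the controls on both sides. The difference of the mean log2(TPM + 1) was 0.087 (exact permutation test, two-sided, p = 0.886, n = 4 each). At under 1 TPM in 7 of 8 muscles, *Nlrc5* was below the filter and was not part of the fit across genes.

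Class II chains varied more between muscles than class I chains. With NT siRNAs alone, the highest muscle exceeded the lowest by 2.30-fold to 2.58-fold for the 3 class II chains and *Cd74*, against 1.18-fold to 1.39-fold for the 4 class I genes. The width of these spans rests largely on NT replicate 3. In the other NT muscles *H2-Aa* ran from 23.2 to 33.0 TPM, *Cd74* from 124 to 167 TPM and *B2m* from 239 to 259 TPM. With *Uba1* siRNAs the spans were closer, at 2.36-fold to 2.50-fold for those class II genes and 1.74-fold to 1.96-fold for *H2-K1*, *H2-D1* and *B2m*. The weakly expressed *Ciita* spanned 3.52-fold with NT and 2.62-fold with *Uba1* siRNAs, and *Nlrc5* 3.70-fold with *Uba1* siRNAs. *H2-Aa*, the alpha chain of I-A, was at 24.9, 33.0, 59.8 and 23.2 TPM with NT siRNAs and at 41.9, 22.4, 54.6 and 26.5 TPM with *Uba1* siRNAs. Replicate 3 was highest in both groups, and the groups overlapped over nearly their whole range. Its log2FC was 0.06 (SE 0.340, limma adjusted p = 0.930) and was -0.057 with median-ratio scaling.

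*H2-Ab1*, the beta chain of I-A, was at 31.8, 40.2, 71.6 and 30.9 TPM with NT siRNAs and at 54.7, 28.8, 69.6 and 36.1 TPM with *Uba1* siRNAs. *H2-Eb1*, the beta chain of I-E, was at 39.6, 49.6, 84.6 and 36.9 TPM with NT siRNAs and at 65.5, 33.8, 84.4 and 43.6 TPM with *Uba1* siRNAs. For both genes, replicate 3 was highest in each group and *Uba1* replicate 2 lowest of all muscles. The log2FC of *H2-Ab1* was 0.12 (SE 0.321, limma adjusted p = 0.846) and that of *H2-Eb1* 0.10 (SE 0.321, limma adjusted p = 0.871). With median-ratio scaling the 2 values were -0.00041 and -0.019. *H2-Ea*, the alpha chain gene of I-E, whose promoter is deleted in mice of the b haplotype such as C57BL/6, was listed at 0 in all 8 muscles.

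*Cd74*, the invariant chain that escorts class II molecules to endosomes, was the most abundant class II gene. It was at 126, 167, 301 and 124 TPM with NT siRNAs and at 220, 116, 275 and 141 TPM with *Uba1* siRNAs. Mouse 3 had the highest value in both legs, and the other muscles of the groups were interleaved. The means were 179 ± 83.2 and 188 ± 72.8 TPM (SD, n = 4 each). The log2FC was 0.08 (SE 0.335, limma adjusted p = 0.903) and was -0.039 with median-ratio scaling. Its 95% interval of -0.67 to 0.84 covers changes from 0.628-fold to 1.79-fold, wider than for any of the 3 tested class I genes. That interval is from the unpaired fit, and with the replicate block the SE was 0.189.

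*Ciita*, the master regulator that switches class II genes on, was the least abundant of the 9. It was at 0.412, 0.386, 0.687 and 0.195 TPM with NT siRNAs and at 0.583, 0.362, 0.949 and 0.414 TPM with *Uba1* siRNAs. It was higher with *Uba1* siRNAs in 3 of 4 mice, yet the groups overlapped. The difference of the mean log2(TPM + 1) was 0.15 (exact permutation test, two-sided, p = 0.429, n = 4 each).

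TPM are per transcript length, so levels can be set beside each other. By the mean of 8 muscles the order was *B2m* (269 TPM), *Cd74* (184), *H2-D1* (99.5), *H2-K1* (68.5), *H2-Eb1* (54.7), *H2-Ab1* (45.5), *H2-Aa* (35.8), *Nlrc5* (0.906) and *Ciita* (0.499). Neighbors in this order overlapped in range over the muscles, except *H2-Aa* and *Nlrc5*. Within a muscle the proportions were much steadier. *Cd74* over *H2-Aa* lay between 5.03 and 5.34 in all 8 muscles, and *H2-Eb1* over *H2-Ab1* between 1.17 and 1.25. *H2-D1* over *H2-K1* lay between 1.34 and 1.60, and *B2m* over the sum of both heavy chains between 1.45 and 1.70. In contrast, *H2-Aa* over *H2-K1* ranged from 0.350 to 0.782, a 2.23-fold span. None of these 5 ratios, nor *H2-Ab1* over *H2-Aa*, differed between the groups at p under 0.05. The p-values lay between 0.229 and 0.886 (exact permutation tests, two-sided, unadjusted, n = 4 each). These tests did not pair the legs of a mouse. *H2-Ab1* over *H2-Aa* was higher in the *Uba1* leg of every mouse. It was 1.276, 1.217, 1.197 and 1.331 in NT replicates 1 to 4 and 1.304, 1.286, 1.274 and 1.361 in *Uba1* replicates 1 to 4. The other 5 ratios were higher in some mice and lower in others. Paired differences of the ratios were not tested.

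Class II levels were highest in mouse 3, and differences between mice were not tested. For *Cd74*, the SD of the mouse means of log2(TPM + 1) was 0.510, and the SD of the leg differences was 0.556. The mean *Cd74* level of both legs was 173, 142, 288 and 132 TPM in mice 1 to 4, numbered here by replicate. For *H2-Aa*, *H2-Ab1*, *H2-Eb1* and *Cd74*, the log2 difference of the *Uba1* leg from the NT leg was 0.71 to 0.80 in mouse 1 and -0.54 to -0.47 in mouse 2. It was 0.18 to 0.24 in mouse 4 and -0.13 to -0.0043 in mouse 3. The direction thus split over the mice for all 4 genes, which were higher with *Uba1* siRNAs in 2 of 4.

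**Figure D2:**
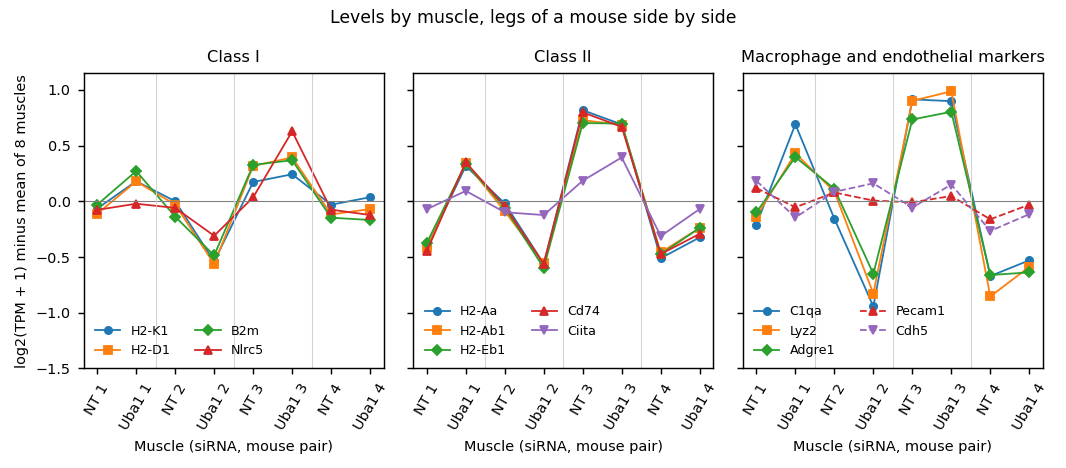
Level of each gene in each muscle as log2(TPM + 1) minus its mean over the 8 muscles, with the NT and *Uba1* legs of a mouse side by side. Class II chains and the macrophage markers *C1qa*, *Lyz2* and *Adgre1* are highest in both legs of mouse 3, while the endothelial markers *Pecam1* and *Cdh5* are not, with the mean of both legs of *Pecam1* at 30.6 TPM in mouse 3 and 28.2 to 31.2 TPM in the others.

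Markers of antigen-presenting and other leukocytes moved with the class II genes across muscles, to differing degrees. The 16 markers of antigen-presenting and other leukocytes summed to 151 to 472 TPM with NT siRNAs and to 142 to 493 TPM with *Uba1* siRNAs, and 0 of the 12 tested passed the adjusted p (limma). The mean level of *C1qa*, a complement gene of macrophages, was 40.1, 22.5, 61.1 and 20.9 TPM in mice 1 to 4, and thus highest, like *Cd74*, in mouse 3. The ratio of *H2-Aa* to *C1qa*, chosen after the values were seen, was 1.05 ± 0.133 in NT muscles and 1.07 ± 0.269 in *Uba1* muscles (mean ± SD, n = 4 each, exact permutation test, two-sided, p = 0.886). The 4 B cell markers summed to no more than 3.15 TPM and the 7 markers of T and NK cells to no more than 2.50 TPM in any muscle. The 5 endothelial markers summed to 94.1 to 131 TPM, and among them *Kdr* ran from 10.6 to 22.9 TPM. The part of these cells in the MHC levels was not tested.

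Likeness to the MHC genes was measured as Pearson's r of log2(TPM + 1) over the 8 muscles, which come from 4 mice and share their libraries, and is given as a description. These TPM were not scaled between muscles. *Uba1* replicates 2 and 3, lowest and highest for class I chains, also had the highest and lowest mitochondrial shares (50.3% and 39.9%). The part of library composition in r was not tested. The genes most like the mean of *H2-Aa*, *H2-Ab1*, *H2-Eb1* and *Cd74* were *Rassf4* (r = 0.996), *Clec10a* (0.988), *Fcer1g* (0.985), *H2-DMb1* (0.985) and *Dpep1* (0.981). Without NT replicate 3 and *Uba1* replicate 3, the muscles farthest from the median, these values were 0.949 to 0.991. *Clec10a* encodes a lectin of macrophages and dendritic cells, and *Fcer1g* the signaling chain of Fc receptors. The genes most like the mean of *H2-K1*, *H2-D1* and *B2m* were *Agpat4* (0.985), *Niban2* (0.983), *Shc1* (0.982), *Dram1* (0.982) and *Efhd2* (0.979), and without *Uba1* replicates 2 and 3 they were 0.916 to 0.974. The median r over all other genes tested was 0.408 for the class II pattern and 0.394 for the class I pattern. For the leukocyte markers it was 0.937 and 0.840, for the myofiber markers 0.556 and 0.791, and for the endothelial markers 0.035 and -0.16. Single leukocyte markers ran from 0.601 to 0.966 with the class II pattern and from 0.376 to 0.938 with the class I pattern. Single myofiber markers ran from -0.62 to 0.854 with the class I pattern.

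Genes that act with the MHC were described by 6 lists. Of 75 genes written, 68 were in the table and 47 were tested. A single one, *Irf1*, passed the adjusted p of 0.05 by limma. At an unadjusted p under 0.05, 11 of 47 were higher and 2 lower, where 16.0% of all genes tested were higher and 1.98% lower. With median-ratio scaling 3 were higher and 3 lower, where 4.43% of all genes tested were higher and 6.18% lower. This split therefore depends on the scaling between muscles. Of the 47 genes, 35 had a log2FC above 0, or 29 with median-ratio scaling, beside 81.8% and 50.7% of all genes tested.

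**Figure D3:**
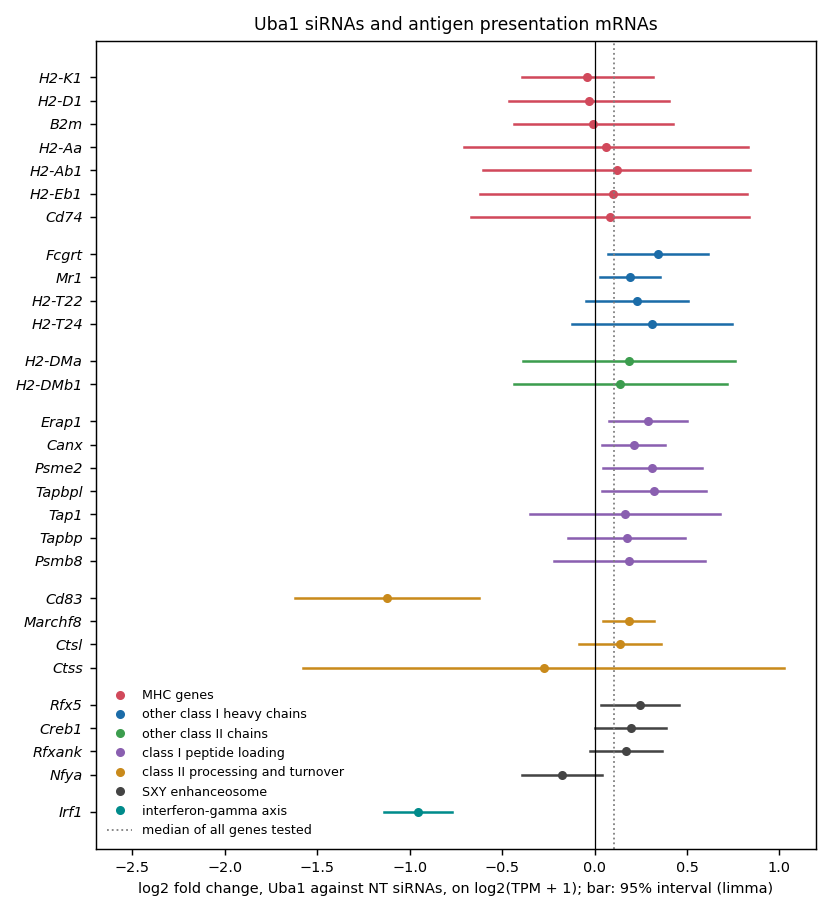
*Uba1*/NT log2FC with 95% intervals from limma for the MHC genes and the other named genes of antigen presentation, grouped by list. The intervals of all 7 tested MHC genes cross 0, *Irf1* lies at -0.95 and *Cd83* at -1.12.

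The peptide-loading list for class I holds the transporter, the chaperones and the proteasome parts that supply peptides. Of its 13 tested genes, 0 passed the adjusted p (limma), 6 were higher and 0 lower at an unadjusted p under 0.05, or 2 higher with median-ratio scaling. Over all genes tested, 16.0% were higher at that threshold, or 4.43% with median-ratio scaling. The median log2FC was 0.26, or 0.14 with that scaling. *Erap1*, which trims peptides in the endoplasmic reticulum, had a log2FC of 0.29 (limma adjusted p = 0.182), and its groups did not overlap (4.03 to 5.55 against 5.58 to 6.52 TPM). *Psme2*, a proteasome activator subunit, had a log2FC of 0.31 (limma adjusted p = 0.227). *Tapbpl*, a peptide editor, had a log2FC of 0.32 (adjusted p = 0.238), and the chaperone *Canx* one of 0.21 (adjusted p = 0.214), both from limma. *Tap1*, the peptide transporter, *Tapbp*, the loading factor tapasin, and *Psmb8*, an immunoproteasome subunit, had log2FC values of 0.16, 0.17 and 0.19 with adjusted p-values of 0.698, 0.506 and 0.574 (limma). With median-ratio scaling their log2FC values were 0.073, 0.057 and 0.090. On that scale the log2FC was 0.19 for *Erap1*, 0.20 for *Psme2*, 0.22 for *Tapbpl* and 0.092 for *Canx*.

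Among the other class I heavy chains, 24 of 30 were listed and 11 were tested, with 0 past the adjusted p (limma) and 2 of 11 higher at an unadjusted p under 0.05, near the 16.0% of all genes tested. These were *Fcgrt*, the neonatal Fc receptor (log2FC 0.34, adjusted p = 0.208), and *Mr1*, which presents microbial metabolites (log2FC 0.19, adjusted p = 0.223). With median-ratio scaling *Fcgrt* alone was higher at that threshold, where 4.43% of all genes tested were, and the log2FC was 0.22 for *Fcgrt* and 0.083 for *Mr1*. *H2-T22* and *H2-T24* had log2FC values of 0.23 and 0.31, or 0.12 and 0.23 with that scaling. The 4 tested chains below 0, *H2-Q4*, *H2-Q6*, *H2-Q7* and *Cd1d1*, ran from -0.17 to -0.048, or from -0.28 to -0.11 with median-ratio scaling. Of the 100-base windows, 11.2% for *H2-Q6* and 21.9% for *H2-Q7* occur unchanged in another gene, so their reads may be shared. The peptide exchange factors *H2-DMa* and *H2-DMb1*, the 2 tested of the other class II chains, had log2FC values of 0.19 and 0.14 with adjusted p-values of 0.691 and 0.769 (limma). With median-ratio scaling their log2FC values were 0.097 and 0.033.

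For processing and turnover of class II, 6 of 7 genes were tested and 0 passed the adjusted p (limma). *Cd83*, which stabilizes class II on the surface of dendritic cells and B cells, was at 8.21, 14.6, 16.3 and 10.5 TPM with NT siRNAs and at 5.19, 3.43, 4.94 and 6.81 TPM with *Uba1* siRNAs. All muscles with *Uba1* siRNAs were below all with NT siRNAs, and it was lower in 4 of 4 mice. The log2FC of -1.12 (standard error 0.221) had an adjusted p of 0.116 from limma, or 0.0728 with the replicate block. *Marchf8*, a ubiquitin ligase that removes class II from the surface, had a log2FC of 0.18 (adjusted p = 0.195), and the lysosomal proteases *Ctsl* and *Ctss* had values of 0.14 and -0.27 (adjusted p = 0.455 and 0.800, all limma). With median-ratio scaling these log2FC values were 0.075 for *Marchf8*, 0.017 for *Ctsl* and -0.39 for *Ctss*.

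The factors that bind the SXY module were listed as 7 genes, all tested, of which 0 passed the adjusted p (limma). At an unadjusted p under 0.05, *Rfx5* (log2FC 0.25, adjusted p = 0.225) and *Creb1* (log2FC 0.20, adjusted p = 0.272) were higher, 2 of 7 beside 16.0% of all genes tested. *Rfxank*, a partner of RFX5, had a log2FC of 0.17, and *Nfya*, a subunit of NF-Y, one of -0.18. With median-ratio scaling none was higher and *Nfya* was lower at an unadjusted p under 0.05, beside 4.43% and 6.18% of all genes tested. On that scale the log2FC was 0.15 for *Rfx5*, 0.11 for *Creb1*, 0.071 for *Rfxank* and -0.27 for *Nfya*.

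In the interferon-gamma axis, 1 of 8 tested genes passed the adjusted p (limma), against 0.0260% of all genes tested. Of the 8, 7 had a log2FC above 0, or 4 with median-ratio scaling, beside 81.8% and 50.7% of all genes tested. The median log2FC of the list was 0.11, so the axis was not lowered as a set. *Irf1* encodes a transcription factor that binds the IRF sites of class I promoters and a promoter of *Ciita*. It was at 12.4, 11.1, 12.0 and 11.4 TPM with NT siRNAs and at 5.30, 4.86, 5.94 and 6.22 TPM with *Uba1* siRNAs. *Irf1* was lower in 4 of 4 mice, and the groups were far apart. The log2FC was -0.95 (SE 0.0814, limma adjusted p = 0.00429). *Ifng* itself was listed at 0 in 6 muscles and at no more than 0.107 TPM in the others.

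**Figure D4:**
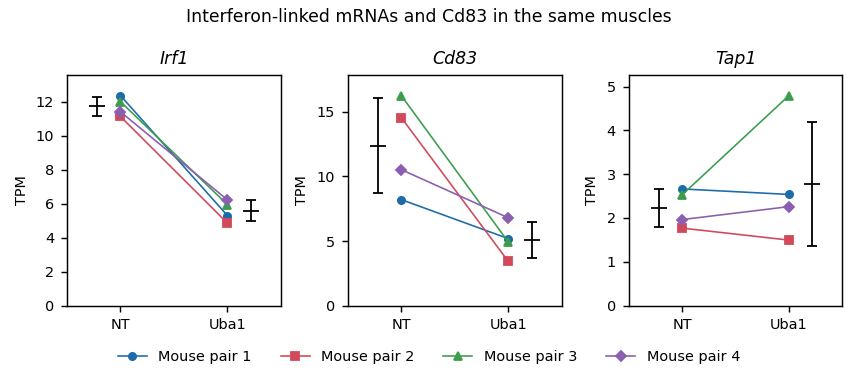
TPM (y axis, from 0) of *Irf1*, *Cd83* and *Tap1* in each muscle with NT or *Uba1* siRNAs, where lines join the legs of a mouse and black bars are the mean ± SD of 4 muscles. *Irf1* and *Cd83* are lower in every *Uba1* leg (*Irf1* at 4.86 to 6.22 against 11.1 to 12.4 TPM), whereas *Tap1* overlaps between the groups.

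Over the 8 muscles, the r of *Irf1* was -0.035 with the class II pattern and 0.151 with the class I pattern. *Irf1* varied mainly between the groups, and the MHC genes hardly differed between them, so these values restate those differences. Whether MHC levels follow *Irf1* was not tested.

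In the GENCODE M39 annotation of GRCm39, the class I heavy chains and class II chains lie in the H2 complex on chromosome 17. *H2-Ab1* spans 34476663 to 34488393 (plus strand, 6 exons), *H2-Aa* 34493404 to 34506798 (minus strand, 5 exons), *H2-Eb1* 34504236 to 34535648 (plus strand, 6 exons), *H2-K1* 34214987 to 34219321 (minus strand, 8 exons) and *H2-D1* 35481691 to 35486475 (plus strand, 8 exons). The gene models of *H2-Aa* and *H2-Eb1* overlap by 2563 bases on opposite strands, but their canonical exons share 0 bases. *B2m* lies on chromosome 2 from 121977957 to 121983594 (plus strand, 4 exons), *Nlrc5* on chromosome 8 from 95160984 to 95253900 (plus strand, 53 exons), *Cd74* on chromosome 18 from 60936899 to 60945731 (plus strand, 9 exons) and *Ciita* on chromosome 16 from 10297923 to 10347694 (plus strand, 19 exons).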

How the data were processed

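Total mRNA of 8 TA muscles was sequenced. Reads were trimmed, kept at a Phred score of at least 20 and a length of at least 50 bases, and aligned to GRCm39 with CLC Genomics Workbench (version 20.0.4), and the authors deposited one TPM value per gene and muscle. The annotation, the treatment of multi-mapping reads and any filter on gene levels are not given in the sources used here. Columns of values without a sample numbered 0. Protein data were not used here.

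The MHC genes and all gene lists were chosen with earlier results of these data known. The methods name an unpaired Kruskal-Wallis test on log TPM. Here limma (3.58.1, R 4.3.3; lmFit, eBayes with trend) was fitted to log2(TPM + 1) of the 11530 genes that reached 1 TPM in at least 4 muscles out of 8, with Benjamini-Hochberg adjustment, and was tested on simulated data. The added 1 shrinks the log2FC of weakly expressed genes. Genes below the filter, and ratios, were compared by exact permutation tests, whose smallest p is 0.0286.

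Named were the 9 MHC genes, in each of 6 lists the genes past the adjusted p or up to 4 with the smallest p, *Tap1*, *Tapbp*, *Psmb8*, *Irf1* and *Ifng*, and the 5 genes most like each class. One further gene of the interferon-gamma list is not reported here. Equal replicate numbers mark the legs of 1 mouse, and mice are numbered by replicate and not by the animal numbers of the labels. Deviations from the group means correlated within pairs 1 to 4 at -0.00037, 0.20, 0.58 and 0.54. Alternatives were a pseudocount of 0.1, no filter or a mean of 5 TPM, median-ratio and quantile scaling, TPM without mitochondrial genes, the replicate block alone or with median-ratio scaling, the Kruskal-Wallis test, and leaving out each muscle. Promoters came from the RefSeq table (GRCm38.p6) and positions from GENCODE M39. TPM keep no depth, so no counting interval could be given.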

Additional observations from a re-analysis of the deposited data

Results flagged for a closer look

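In 85 groups of 4 muscles over 43 genes, the highest or lowest muscle was searched for a gap to the others that passes Dixon's 95% limit. Of these, 4 passed, where 4.25 are expected by chance. *Nlrc5* was at 0.921 TPM in NT replicate 3, against 0.776 to 0.798 TPM in the other NT muscles. *Fcgrt* was at 34.1 TPM in NT replicate 2, against 36.7 to 37.0 TPM. *Rfx5* was at 3.91 TPM in *Uba1* replicate 2, against 4.91 to 5.09 TPM in the other *Uba1* muscles. *Niban2* was at 8.61 TPM in NT replicate 3, against 6.52 to 6.81 TPM.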

How the results depend on the processing

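No MHC gene passed its threshold in any of 140 alternatives, and 33 of these turned the sign of a log2FC that was near 0. With median-ratio scaling, alone and with the replicate block, the log2FC was -0.057 for *H2-Aa*, -0.00041 for *H2-Ab1*, -0.019 for *H2-Eb1* and -0.039 for *Cd74*. Without mitochondrial genes it was 0.011 for *B2m*. With quantile normalization it was -0.016 for *H2-Aa* and -0.0012 for *Nlrc5*. When single muscles were left out, the log2FC ranged from -0.13 to 0.13 for *H2-K1*, from -0.17 to 0.15 for *H2-D1*, from -0.13 to 0.15 for *B2m*, from -0.11 to 0.20 for *Nlrc5*, from -0.16 to 0.34 for *H2-Aa*, from -0.090 to 0.38 for *H2-Ab1*, from -0.11 to 0.35 for *H2-Eb1*, from -0.13 to 0.36 for *Cd74*, from -0.023 to 0.36 for *H2-DMb1*, from -0.067 to 0.34 for *Tap1* and from -0.70 to 0.19 for *Ctss*. It kept its sign but ranged from 0.041 to 0.23 for *Ciita* (0.39 with a pseudocount of 0.1), from 0.0087 to 0.41 for *H2-DMa*, from 0.029 to 0.33 for *Psmb8*, from 0.044 to 0.18 for *Ctsl*, from 0.068 to 0.27 for *Tapbp*, from 0.14 to 0.42 for *H2-T24*, from 0.16 to 0.36 for *H2-T22* and from -0.23 to -0.12 for *Nfya*. *Irf1* passed the adjusted p in 16 of 16 alternatives of the limma fit. By the Kruskal-Wallis test 0 genes of the lists passed, in place of 1, but 0 of all 11530 genes passed by it, so this count says nothing about *Irf1*. Paired by mouse (replicate block), 57 genes of all tested passed in place of 3, and *Uba1* had an adjusted p of 0.0278 in place of 0.0527 (limma). The block changed no call among the MHC genes. Of all genes tested, 23 passed with median-ratio scaling, 76 with that scaling and the block, 28 with quantile normalization, 13 without mitochondrial genes, 11 at a mean of 5 TPM or more, 39 without *Uba1* replicate 4, 6 without NT replicate 1, 5 without NT replicate 3 or *Uba1* replicate 2, 2 without each of the others and 0 by Kruskal-Wallis (2210 unadjusted). The cause of these shifts was not tested. Depth is unknown for TPM.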
